A study of Sus scrofa with 6 samples.

Results

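The hypoxia-inducible factor (HIF) subunits and the enzymes that sense oxygen for them were followed from the fetal to the neonatal piglet lung. The group was set by gene name and holds 10 genes: the alpha subunits HIF1A, EPAS1 (also called HIF-2 alpha) and HIF3A, their dimer partner ARNT, the ubiquitin ligase subunit VHL, the prolyl hydroxylases EGLN1, EGLN2 and EGLN3, the asparaginyl hydroxylase HIF1AN, and MXI1, a repressor of MYC that is a known HIF target. Of these 10 genes, 7 had a matched row among the 14579 mRNAs of the deposited expression table. VHL, EGLN2 and HIF1AN had no row that could be matched by identifier, and they were not analysed here. The libraries were made from lung tissue of 6 female hybrid piglets of Tibetan sires and Meishan dams, 1 library per piglet. The region of the lung is not stated. The fetal group (labelled prenatal) held 3 piglets taken on the last day before birth from 3 sows. The neonatal group held 3 piglets taken 2 days after birth from another 3 sows. The labels name no treatment. The paper mentions both caesarean and parturition, so birth, delivery route, age and dam cannot be told apart in this design.

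HIF alpha subunits such as HIF1A are made continuously and are held down by oxygen. Prolyl hydroxylases of the EGLN family use oxygen, iron and 2-oxoglutarate to hydroxylate the alpha subunit, which VHL then marks for degradation, while HIF1AN blocks the recruitment of coactivators. At low oxygen the alpha subunit is spared, pairs with ARNT and switches on genes of glycolysis, blood vessel growth and red cell supply. Targets of this switch include EGLN3 and MXI1, and other members may be targets as well. EPAS1 is well known as a lung endothelial gene. Most of the oxygen control acts on the protein, so that mRNA levels of the subunits do not by themselves report HIF activity.

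Expression was given as FPKM, the fragments of a gene scaled to transcript length and to the mapped fragments of its library. This is a unit per length, so that levels of different genes could be set beside each other within a sample. The table held no read counts, so no counting error could be given, and the spread between the 3 piglets of a group was the error used. Group differences are given as log2(FC), the neonatal minus the fetal mean of log2(FPKM + 1), which understates the change of genes with low FPKM. They were fitted in limma over all 14579 mRNAs with Benjamini-Hochberg adjustment. The threshold for a call was an adjusted p of 0.05. Over the whole table the median log2(FC) stood at 0.13, and at -0.0090 after median-of-ratios scaling of the samples, so differences are read against this shift.

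EGLN3, HIF3A and MXI1 were lower in the neonatal lung, and no member was past the threshold in the other direction. HIF1A was the one member whose neonatal values all lay above its fetal values, but it was not past the threshold. EPAS1, ARNT and EGLN1 overlapped between the groups. The 3 of 7 members called stand beside 6.87% of all mRNAs called in either direction and 1.45% called lower. The groups did not overlap for 4 of the 7 members, beside 30.5% of all mRNAs. Of these 4, HIF1A was higher, beside 20.9% of all mRNAs, and 3 were lower, beside 9.64%. In bulk tissue, fewer cells of a type and less RNA per cell cannot be told apart.

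**Figure D1:**
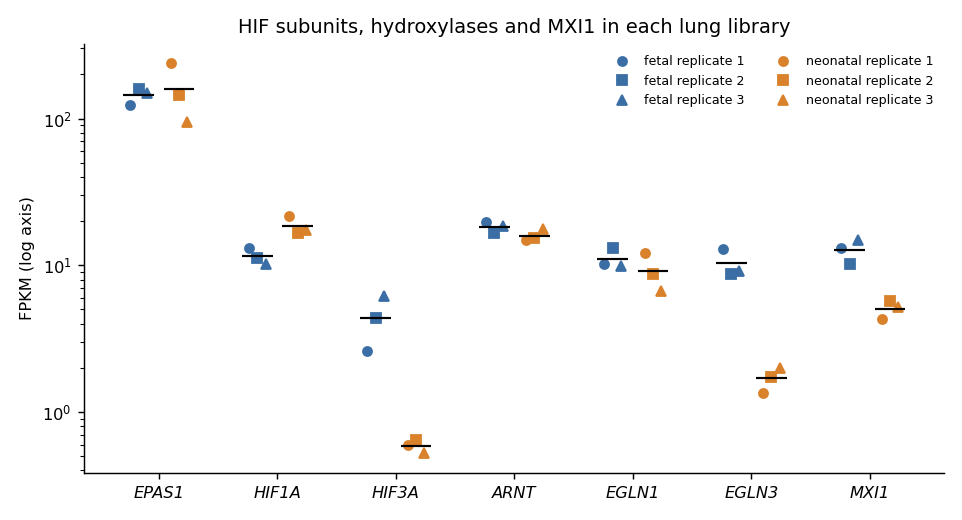
FPKM of the 7 measured members (x axis) on a log axis; each point is 1 piglet, with fetal samples in blue, neonatal samples in orange and the group mean as a black line. EPAS1 lies far above the rest in every sample, and the neonatal points of HIF3A, EGLN3 and MXI1 lie below all their fetal points.

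EPAS1 was the most abundant of the HIF alpha mRNAs in all 6 samples. Fetal1, Fetal2 and Fetal3 had 123.3, 158.1 and 150.2 FPKM of EPAS1, while Neonatal1, Neonatal2 and Neonatal3 had 237.1, 144.0 and 94.2 FPKM. Neonatal1 was the highest of all samples and Neonatal3 the lowest, so the neonatal group enclosed the whole fetal range. The log2(FC) was 0.05, with a 95% confidence interval from -0.76 to 0.85 (limma adjusted p = 0.947). The coefficient of variation of EPAS1 was 12.7% in the fetal group and 45.8% in the neonatal group. Without Neonatal1 its log2(FC) was -0.29, and after median-of-ratios scaling it was -0.13, so the sign of the difference is not fixed. By mean FPKM over the samples, EPAS1 ranked 393 among the 14579 mRNAs.

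The spread of EPAS1 among neonatal piglets was set beside that of endothelial genes, since EPAS1 is abundant in endothelium. The 10 measured of 12 endothelial markers summed to between 518.0 and 641.8 FPKM in the fetal samples. For Neonatal1, Neonatal2 and Neonatal3 the sums were 684.0, 926.9 and 925.4 FPKM. CLDN5, a tight junction protein, made up most of each neonatal sum, at 377.1, 616.1 and 617.1 FPKM (limma adjusted p = 0.0585). The other 9 markers, summed after the values were seen, gave 382.9, 320.1 and 377.0 FPKM in the fetal samples. Their neonatal sums were 306.9, 310.9 and 308.3 FPKM, all below the fetal sums. These sums are unscaled, and the median-of-ratios factors of Neonatal1, Neonatal2 and Neonatal3 rose in order, at 1.0012, 1.0855 and 1.1539. Whether endothelial content followed the spread of EPAS1 was not tested. KDR, a VEGF receptor, EMCN and S1PR1 were lower without overlap, as were 9.64% of all mRNAs, and PECAM1, an adhesion molecule, overlapped. The median log2(FC) of the 10 markers was -0.03, and after median-of-ratios scaling it was -0.20, with 9 of the 10 lower. None of the 10 was past the threshold in limma, and 3 (30.0%) had an unadjusted p under 0.05, beside 24.2% of all mRNAs.

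HIF1A, the alpha subunit found in most cell types, was measured at 13.1, 11.2 and 10.18 FPKM in Fetal1, Fetal2 and Fetal3. In Neonatal1, Neonatal2 and Neonatal3 it reached 21.6, 16.6 and 17.5 FPKM. Every neonatal value was above every fetal value, and the ratio of the group means was 1.61. The log2(FC) was 0.64 with a 95% confidence interval from 0.21 to 1.08, but after adjustment over all mRNAs p was 0.0902 in limma. After median-of-ratios scaling it was 0.48, with an interval from 0.03 to 0.92 (limma adjusted p = 0.176). Quantile normalization gave 0.44, with an interval from -0.03 to 0.91 that includes 0 (limma adjusted p = 0.224). When single samples were left out, the log2(FC) of HIF1A lay between 0.53 and 0.73 and was past the threshold in none of these 6 fits.

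HIF3A encodes an alpha subunit with splice forms that act against the other alpha subunits. Its FPKM was 2.61, 4.38 and 6.22 in Fetal1, Fetal2 and Fetal3. The neonatal values were 0.597, 0.645 and 0.523 FPKM for Neonatal1, Neonatal2 and Neonatal3. HIF3A varied more among the fetal than among the neonatal piglets, with coefficients of variation of 41.0% and 10.5%, yet the lowest fetal value was far above the highest neonatal value. The mean fell from 4.40 ± 1.81 to 0.588 ± 0.0616 FPKM (SD, n = 3 each), which is 7.48 times lower in FPKM. The log2(FC) of HIF3A was -1.71 (standard error 0.28, limma adjusted p = 0.0155), which ranked 90 from the lowest of all mRNAs. HIF3A was past the threshold in 3 of the 6 fits that leave out 1 sample. Its adjusted p rose to 0.0877 without Fetal2, 0.0674 without Neonatal2 and 0.0718 without Neonatal3, with a log2(FC) between -1.97 and -1.47 throughout. A gene-level FPKM does not tell which splice forms of HIF3A were present.

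Because FPKM is per length, the alpha subunits can be read as shares of their summed FPKM within each sample. EPAS1 held 88.7%, 91.0% and 90.2% of it in Fetal1, Fetal2 and Fetal3, compared with 91.4%, 89.3% and 84.0% in Neonatal1, Neonatal2 and Neonatal3. HIF1A held between 6.11% and 9.45% in the fetal samples and between 8.34% and 15.6% in the neonatal samples, and the groups overlapped. HIF3A went from 1.87%, 2.52% and 3.73% to 0.230%, 0.400% and 0.466%. Its share was lower by 2.34 percentage points, without overlap (two-sided exact permutation test, p of 0.1, which is the lowest that 3 against 3 allows). The share of EPAS1 differed by -1.71 percentage points (two-sided exact permutation test, p = 0.7), and without Neonatal3 this turned to 0.424 points. The share of HIF1A, added after the data were seen, differed by 4.05 points (exact permutation test, two-sided p = 0.2).

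**Figure D2:**
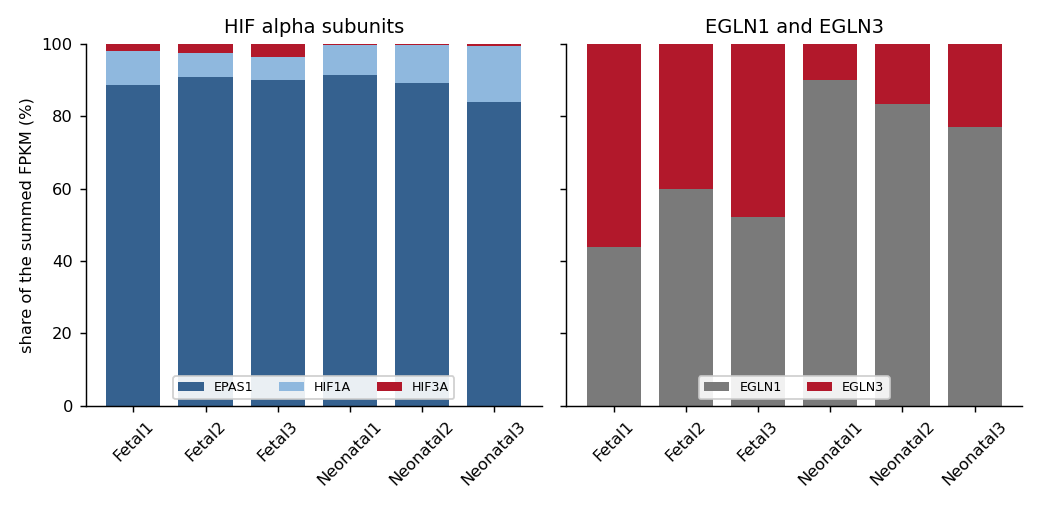
Stacked bars give the share (%) of the summed FPKM in each of the 6 samples, for EPAS1, HIF1A and HIF3A on the left and for EGLN1 and EGLN3 on the right. EPAS1 fills between 84.0% and 91.4% of the left bars, and EGLN3 fills between 40.0% and 56.0% of the fetal but between 9.98% and 23.1% of the neonatal bars on the right.

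The unequal course of HIF3A and EPAS1 was also taken as a ratio within each sample, which multiplying a sample by a constant leaves as it is. The log2 ratio of HIF3A to EPAS1 was -5.11 ± 0.488 in the fetal group and -7.98 ± 0.591 in the neonatal group (SD, n = 3 each). The groups did not overlap (exact permutation test, two-sided, at its lowest possible p of 0.1), and the ratio was 7.29 times lower in the neonatal group, or 3.38 times lower with 1 FPKM added to both genes. The log2 ratio of HIF1A to EPAS1, also added after the data were seen, was higher in the neonatal group by 0.64 (exact permutation test, two-sided p = 0.2), with overlap. In all, 8 such shares and ratios were tested, and the lowest p after Benjamini-Hochberg adjustment over the 8 was 0.2.

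ARNT, the shared beta subunit, varied least of the members within both groups, with coefficients of variation of 8.81% and 9.01%. Its fetal values were 19.7, 16.5 and 18.5 FPKM and its neonatal values 14.9, 15.3 and 17.6 FPKM, in the order of the sample numbers. The groups overlapped, with a log2(FC) of -0.18 and a 95% confidence interval from -0.57 to 0.21 (limma adjusted p = 0.540). After median-of-ratios scaling it was -0.35, with an interval from -0.67 to -0.03 (limma adjusted p = 0.173). Quantile normalization gave -0.40, with an interval from -0.72 to -0.09 (limma adjusted p = 0.113). HIF1A was below ARNT in every fetal sample, at between 0.549 and 0.682 times its FPKM, and in the neonatal samples it stood at 1.45, 1.08 and 0.992 times ARNT. The summed alpha subunits exceeded ARNT in every sample, by a log2 ratio of 3.13 ± 0.290 in the fetal and 3.40 ± 0.723 in the neonatal group (SD, n = 3 each), with overlap (two-sided exact permutation test, p = 0.7). That difference of 0.27 became -0.10 without Neonatal1.

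EGLN3, the prolyl hydroxylase most strongly induced by HIF in many cells, had the lowest log2(FC) of the members on the log2(FPKM + 1) scale, although HIF3A had the larger ratio of mean FPKM. It was measured at 13.01, 8.74 and 9.13 FPKM in Fetal1, Fetal2 and Fetal3. By contrast, Neonatal1, Neonatal2 and Neonatal3 held 1.35, 1.72 and 2.01 FPKM. Every fetal value was well above every neonatal value, and the ratio of the fetal to the neonatal mean was 6.07. The log2(FC) of EGLN3, at -2.05, ranked 52 from the lowest of all mRNAs (95% confidence interval from -2.56 to -1.55, limma adjusted p = 0.00435). Leaving out any 1 piglet kept EGLN3 past the threshold, at an adjusted p between 0.0217 and 0.0340 in limma.

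EGLN1, the main prolyl hydroxylase of HIF1A at normal oxygen, did not follow EGLN3. Fetal1, Fetal2 and Fetal3 had 10.21, 13.1 and 9.97 FPKM of EGLN1, and Neonatal1, Neonatal2 and Neonatal3 had 12.2, 8.70 and 6.70 FPKM. Neonatal1 lay inside the fetal range and the other neonatal samples below it. The log2(FC) of EGLN1 was -0.27, with a 95% confidence interval from -0.84 to 0.29 (limma adjusted p = 0.525). EGLN1 and EPAS1 were the members with Neonatal1 highest and Neonatal3 lowest among the neonatal samples, an order seen in 13.3% of all mRNAs.

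Before birth EGLN1 and EGLN3 were present at similar levels, and after birth EGLN1 was the more abundant in every piglet. EGLN1 stood at 0.785, 1.499 and 1.09 times EGLN3 in Fetal1, Fetal2 and Fetal3, against 9.02, 5.05 and 3.34 times in Neonatal1, Neonatal2 and Neonatal3. As a share of the sum of both, EGLN3 went from 47.9% ± 8.004 to 16.5% ± 6.53 (SD, n = 3 each). The log2 ratio of EGLN3 to EGLN1 was -0.12 ± 0.467 in the fetal group and -2.42 ± 0.720 after birth (SD, n = 3 each), a 4.91 times lower ratio with no overlap of the groups (exact permutation test, two-sided, at its lowest possible p of 0.1). EGLN2 is missing from these shares.

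MXI1 takes MAX, the partner of MYC, and represses MYC targets. Its values of 13.2, 10.25 and 14.8 FPKM in the fetal samples were all above the 4.28, 5.71 and 5.17 FPKM of the neonatal samples, and the fetal mean was 2.53 times the neonatal mean. For MXI1 the log2(FC) was -1.18 (95% confidence interval from -1.65 to -0.70, limma adjusted p = 0.0189). The call was lost in 5 of the 6 fits with 1 library left out: without Fetal1, Fetal2, Fetal3, Neonatal2 or Neonatal3 the adjusted p was 0.0809, 0.0562, 0.0689, 0.0638 and 0.0704, and it was 0.0459 without Neonatal1. Its log2(FC) stayed between -1.32 and -1.07 in these fits.

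**Figure D3:**
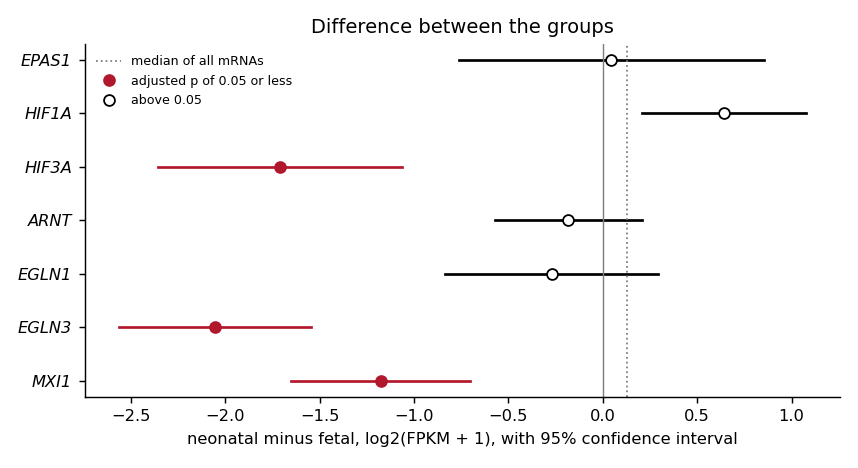
Difference of the group means on the log2(FPKM + 1) scale (x axis, neonatal minus fetal) for each member, with the 95% confidence interval from limma; red marks an adjusted p of 0.05 or less, and the dotted line is the median of all mRNAs, 0.13. The intervals of HIF3A, EGLN3 and MXI1 lie wholly below 0, that of HIF1A lies above it, and those of EPAS1, ARNT and EGLN1 include it.

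The order of the members by level changed with these differences. In the fetal group EPAS1 was followed by ARNT, and then by MXI1, HIF1A, EGLN1 and EGLN3, whose means lay between 12.8 and 10.3 FPKM and whose ranges overlapped from one to the next. HIF3A was lowest, apart from EGLN3. In the neonatal group EPAS1 was followed by HIF1A and ARNT, which overlapped, and then by EGLN1, MXI1, EGLN3 and HIF3A, each with a range apart from the next.

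The regulators around these proteins were read from a list of 30 genes, of which 22 had a matched row. None was past the threshold in limma, while 6 (27.3%) had an unadjusted p under 0.05, beside 24.2% of all mRNAs. Their median log2(FC) was 0.02, with 11 above and 11 below 0. The groups did not overlap for 6 of them (27.3%, beside 30.5% of all mRNAs), 3 higher and 3 lower. Of the VHL ligase, CUL2, its cullin scaffold, had a log2(FC) of -0.23 (limma adjusted p = 0.599), and the adaptors ELOB and ELOC had 0.61 and 0.05 (limma adjusted p = 0.378 and 0.912). Of the coactivators, CREBBP had a log2(FC) of -0.27 and EP300 one of -0.16 (limma adjusted p = 0.402 and 0.796). The 3 higher ones were FHL2, a LIM-domain cofactor, from 1.44 ± 0.510 to 3.80 ± 0.802 FPKM (limma adjusted p = 0.0533), HSP90AA1, a chaperone that stabilises HIF1A, from 113.7 ± 17.5 to 190.2 ± 51.6 FPKM (limma adjusted p = 0.153), and SMARCA4, a chromatin remodeller, from 9.92 ± 1.40 to 16.3 ± 1.71 FPKM (SD, n = 3 each; limma adjusted p = 0.0743). Of the lower ones, WSB1, a ubiquitin ligase subunit that acts on VHL, had a log2(FC) of -0.56 and TSGA10 one of -0.66 (limma adjusted p = 0.0951 and 0.0725). WSB1 was past the threshold after median-of-ratios scaling (limma adjusted p = 0.0374).

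ARNT also serves other proteins of the bHLH-PAS family. A list of 13 genes held partners and relatives of this family, not all of them partners of ARNT, and 6 had a matched row. The groups did not overlap for 2 of the 6 (33.3%, beside 30.5% of all mRNAs), 1 higher and 1 lower. AHR, the dioxin receptor and a competitor for ARNT, was the one past the threshold, or 16.7% of the 6 against 6.87% of all mRNAs. Its fetal values of 19.4, 15.9 and 14.6 FPKM did not overlap its neonatal values of 8.88, 10.1 and 8.17 FPKM. The log2(FC) of AHR was -0.80 (standard error 0.18, limma adjusted p = 0.0452), and it was past the threshold in none of the 6 fits with 1 sample left out. BMAL2, a clock protein, was low in both groups, at 0.170 ± 0.0257 and 0.513 ± 0.194 FPKM (SD, n = 3 each; limma adjusted p = 0.314).

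Of the MYC, MAX and MXD network, 10 of 14 listed genes had a matched row, and MAX was not among them. None was past the threshold in limma, and 4 (40.0%) had an unadjusted p under 0.05, beside 24.2% of all mRNAs. For MYC itself, fetal lungs gave 5.25, 3.70 and 2.63 FPKM and neonatal lungs 6.97, 7.63 and 6.75 FPKM. All neonatal values of MYC were above all fetal values, with a log2(FC) of 0.77 (limma adjusted p = 0.0985). MXD3, a relative of MXI1, had 11.2 ± 4.38 and 23.9 ± 7.92 FPKM (SD, n = 3 each; limma adjusted p = 0.102), also without overlap and opposite in sign to MXI1. MLXIP, a glucose-responsive factor that pairs with MLX, was lower without overlap, at 7.27 ± 0.504 and 4.91 ± 1.38 FPKM (SD, n = 3 each; limma adjusted p = 0.207). MXD1 and MXD4, further members of the same repressor family, overlapped between the groups, with log2(FC) values of -0.49 and 0.85 (limma adjusted p = 0.539 and 0.195).

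Known targets of HIF were found on both sides. Of 45 listed targets outside glycolysis, 30 had a matched row, 24 of them with a lower and 6 with a higher neonatal mean, and the median log2(FC) was -0.31 against 0.13 for all mRNAs. Past the threshold were 1 lower and 1 higher, or 6.67% of the 30 against 6.87% of all mRNAs. The groups did not overlap for 15 of the 30, and 12 of these were lower, where 9.64% of all mRNAs were lower without overlap. Since EGLN3 and MXI1 are counted among the members, they are not part of this list.

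RORA, a nuclear receptor, was the target that fell, from 9.78, 7.85 and 7.08 FPKM in the fetal samples to 2.82, 3.70 and 3.40 FPKM in the neonatal samples (log2(FC) -1.10, limma adjusted p = 0.0213). It was past the threshold in 1 of the 6 fits with 1 sample left out. NDRG1, a stress-response gene used as a marker of low oxygen, had 43.3 ± 3.94 FPKM before and 17.8 ± 7.37 FPKM after birth (SD, n = 3 each), which missed the threshold narrowly (limma adjusted p = 0.0523). After quantile normalization 5 targets were past the threshold on the lower side and 1 on the higher side. Over all mRNAs this normalization moved the lower calls from 212 to 486 and the higher calls from 789 to 669. VEGFA, the vessel growth factor and best known target, named here after its values were seen, overlapped, with 46.2, 34.6 and 51.5 FPKM before birth and 28.5, 50.7 and 38.8 FPKM after it (log2(FC) -0.18, limma adjusted p = 0.705).

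ANGPTL4, a secreted inhibitor of lipoprotein lipase that HIF and the PPAR receptors both induce, went the other way. It was measured at 2.26, 1.64 and 0.777 FPKM in Fetal1, Fetal2 and Fetal3, and reached 14.0, 12.7 and 10.6 FPKM in Neonatal1, Neonatal2 and Neonatal3. The log2(FC) of ANGPTL4 was 2.43 (standard error 0.26, limma adjusted p = 0.00453), past the threshold in all 6 fits with 1 sample left out. EGLN3 and ANGPTL4, both HIF targets, differed in opposite directions in the same libraries.

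Of 20 glycolytic targets, 17 had a matched row, 11 higher and 6 lower, with a median log2(FC) of 0.21. After median-of-ratios scaling the median was 0.03 and 8 of the 17 were lower, so no direction is given for this list. The list held 1 gene past the threshold in each direction, or 11.8% of the 17 against 6.87% of all mRNAs. PFKFB3, which makes the activator of phosphofructokinase, had fetal values of 13.2, 8.52 and 12.6 FPKM and neonatal values of 5.41, 3.04 and 4.68 FPKM (limma adjusted p = 0.0341). ENO1, the enolase, had fetal values of 50.6, 49.4 and 40.3 FPKM and neonatal values of 85.3, 102.4 and 84.4 FPKM (limma adjusted p = 0.0317). Each was past the threshold in 1 of the 6 fits with 1 sample left out. PGAM1, the phosphoglycerate mutase, also had no overlap, at 56.5 ± 14.4 and 114.9 ± 37.4 FPKM (SD, n = 3 each; limma adjusted p = 0.104).

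The EGLN enzymes belong to the dioxygenases that need oxygen and 2-oxoglutarate, and 29 of 40 others listed had a matched row. Their median log2(FC) was -0.10, with 12 higher and 17 lower, and 3 of them (10.3%, against 6.87% of all mRNAs) were past the threshold. The collagen prolyl 3-hydroxylases P3H1 and P3H3 rose, from 14.0 ± 1.45 to 27.4 ± 4.59 FPKM and from 7.78 ± 1.66 to 15.1 ± 2.27 FPKM (SD, n = 3 each; limma adjusted p = 0.0349 and 0.0489). KDM7A, a histone demethylase, fell from 14.0 ± 0.703 to 7.26 ± 1.23 FPKM (SD, n = 3 each; limma adjusted p = 0.0330). P3H1 and KDM7A were past the threshold in 1 of the 6 fits with 1 sample left out and P3H3 in 0, and median-of-ratios scaling also lost P3H3. TMLHE, the first enzyme of carnitine synthesis, had 3.73 ± 1.30 and 8.71 ± 3.11 FPKM (SD, n = 3 each; limma adjusted p = 0.110). Among the collagen prolyl 4-hydroxylases, P4HA1 had a log2(FC) of -0.57 and P4HA2 one of 0.17 (limma adjusted p = 0.218 and 0.690). P4HTM, a membrane-bound relative that can also act on HIF, had a log2(FC) of -0.10 (limma adjusted p = 0.812). P4HA1 and P4HA2 were also on the list of targets outside glycolysis, and P4HTM on that of the regulators, so these lists share genes.

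**Figure D4:**
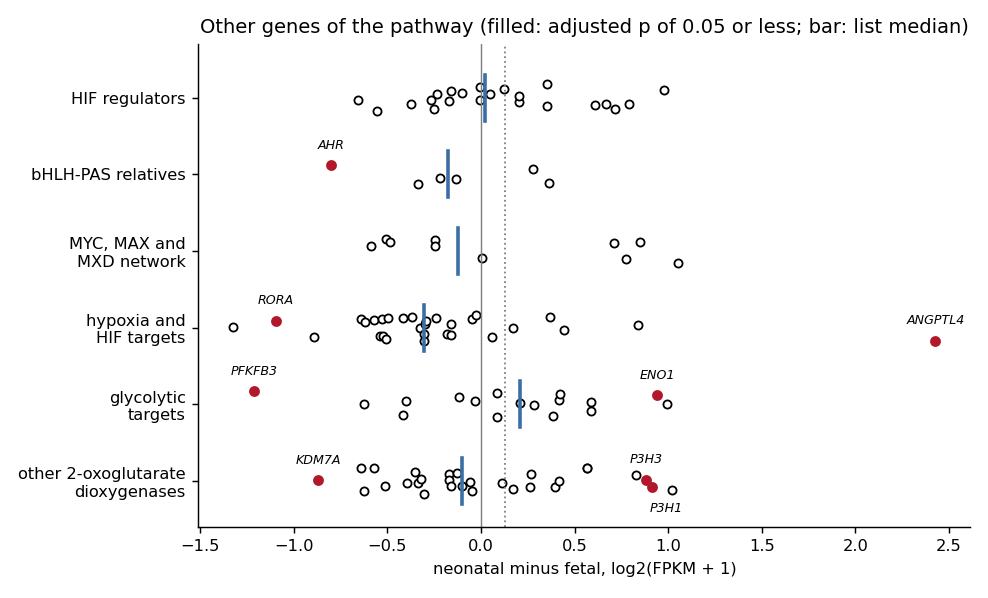
Each point is 1 matched gene of a list (y axis), placed by its difference between the groups on the log2(FPKM + 1) scale (x axis, neonatal minus fetal); filled points had an adjusted p of 0.05 or less, blue bars are list medians and the dotted line is the median of all mRNAs. Targets outside glycolysis gather below 0 around -0.31, with ANGPTL4 alone at 2.43, and no regulator is filled.

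The genes whose pattern over the 6 samples was most like that of the members that fell were found by Pearson correlation of log2(FPKM + 1) with 5534 other named mRNAs with a mean of at least 5 FPKM. The 6 points form 2 groups, so a high coefficient mostly repeats the group difference. For EGLN3 these were ZBTB16, a zinc finger repressor (r = 0.993), PCMTD1 (r = 0.991) and SUCO (r = 0.991). ZBTB16 stood at 44.3 ± 7.95 and 7.02 ± 0.844 FPKM (SD, n = 3 each). For HIF3A they were MID2 (r = 0.992), DHX36, an RNA helicase (r = 0.982), and GFRA1, a receptor for GDNF (r = 0.979). For MXI1 they were EFEMP1, a matrix protein (r = 0.994), LAMB2, a laminin chain (r = 0.986), and CSPP1 (r = 0.986). A coefficient above 0.95 was reached by 83 genes for EGLN3, 25 for HIF3A and 70 for MXI1.

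Cell type markers also differed in their summed FPKM, which was not rescaled, beside these results. The FPKM of all mRNAs summed to between 339491 and 471220 in the fetal and between 491548 and 777982 in the neonatal samples. The marker sums therefore depend on scaling and do not measure cell makeup by themselves. All 11 measured of 15 cell cycle markers were higher, and their summed level went from between 17.3 and 22.1 FPKM in the fetal to between 135.3 and 164.7 FPKM in the neonatal samples. The 7 measured of 10 neutrophil markers summed to between 86.0 and 158.0 FPKM before and between 854.8 and 1326 FPKM after birth. Of these 7, 4 (57.1%, against 6.87% of all mRNAs) were past the threshold. Mesenchymal markers (7 of 10 measured, 2 past the threshold) went from between 1159 and 1544 to between 2067 and 2943 FPKM, and ciliated cell markers (5 of 10 measured, 1 past the threshold) went from between 63.7 and 105.0 to between 53.8 and 61.8 FPKM. Type II cell markers, which define the lung's surfactant cells (9 of 10 measured), were high in all samples, and none was past the threshold. Their sums lay between 4912 and 5503 FPKM in the fetal and between 6660 and 11830 FPKM in the neonatal samples. SFTPC alone gave between 3171 and 3902 FPKM of the fetal sums and between 4233 and 8790 FPKM of the neonatal sums. After median-of-ratios scaling 4 of the 9 had a lower neonatal mean, against 2 before. All 7 measured of 10 macrophage markers had a higher neonatal mean, with a median log2(FC) of 0.84, and none was past the threshold. CD68 and MRC1 were without overlap, or 28.6% of the 7 beside 30.5% of all mRNAs. The macrophage sums overlapped, at between 402.9 and 939.9 FPKM before and between 675.2 and 1592 FPKM after birth. The sums of type I cell, lymphocyte and erythroid markers also overlapped, none of their measured markers was past the threshold, and no measured marker of any list was listed at 0 in all samples. The part of these cell types in the falls of EGLN3, HIF3A and MXI1 was not tested.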

How the data were processed

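RNA of 6 piglet lungs was sequenced by the authors from strand-specific Ribo-Zero libraries. Reads were mapped to Sscrofa10.2 with TopHat2 (2.1.0), and the deposited mRNA table holds FPKM that the authors computed with Cufflinks (2.2.1). Each of the 14579 mRNAs exceeded 0.5 FPKM in 1 or more samples, and 0 value columns were left unmatched. The lncRNA table was not used. The table holds no counts, so no counting error could be given. Where the study used Cuffdiff, a test on log2(FPKM + 1) was used here because no read counts were at hand.

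Symbols were taken from a reference table for 9478 mRNAs and from the gene names of a supplementary table for 362 more. A gene without a matched identifier may still be in the table under an older identifier. No sequences of these genes were at hand, and positions are not given because the reference annotation is of another build. The members and gene lists were chosen with earlier results of these data known.

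Groups were compared with limma 3.58.1 under R 4.3.3, letting the variance follow the mean and using no covariate. Benjamini-Hochberg adjustment ran over all mRNAs. Shares and ratios were compared with exact two-sided permutation tests (Python 3.11.15, scipy 1.17.1), whose smallest p is 0.1 for 3 animals against 3. In simulated tables of 14579 mRNAs with the spread of these samples, limma found 0 of 200 genes given a log2 change of 1, 153 of 200 given 2 and 190 of 200 given 4. The false calls were 0, 8 and 8. With only 200 changed genes, against 1001 calls in the data, the adjustment asks for a lower unadjusted p. The noise of each mRNA was also drawn with its own observed SD within the groups, which 3 animals per group estimate only roughly. These simulated counts are therefore not the power of the real fit, which called AHR at a log2(FC) of -0.80. The alternatives were pseudocounts of 0.5 and 0.1, a stricter filter (over 1 FPKM in 3 or more samples), quantile normalization, scaling by median of ratios, a constant variance, a replicate block, and each sample left out. The ratio of MXI1 to MAX was planned, but MAX had no matched row. Named are all members, list genes past the threshold (at most 12 a list), up to 3 list genes without overlap between groups, and the 3 genes most like each called member. Further list genes named in the text (CUL2, ELOB, ELOC, CREBBP, EP300, MXD1, MXD4, P4HA1, P4HA2, P4HTM, WSB1, TSGA10, VEGFA, and the single endothelial and macrophage markers) were chosen after their values were seen.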

Additional observations from a re-analysis of the deposited data

How the results depend on the processing

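EGLN3 stayed past the threshold under all 7 alternatives with 6 samples and in all 6 fits with 1 sample left out. HIF3A stayed past it under the same 7 alternatives, and MXI1 under all of these but the replicate block, where its adjusted p was 0.0682. Over all fits the adjusted p of MXI1 ran from 0.00930 to 0.0809 and that of HIF3A from 0.0125 to 0.0877. With the replicate block the same 2 of 3 calls, EGLN3 and HIF3A, were left. The numbers do not pair the piglets, which came from different sows: deviations of same-numbered samples correlated at -0.0407, -0.00434 and 0.000467. The block left 401 of the 1001 calls over all mRNAs, 1 of the targets outside glycolysis, 1 glycolytic target, 0 bHLH-PAS relatives and 0 other dioxygenases. For shares and ratios the block leaves the differences as they are by construction, and raised the lowest possible p from 0.1 to 0.25.

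EPAS1 changed sign under median-of-ratios scaling (-0.13), quantile normalization (-0.34), and without Fetal1 (-0.06) or Neonatal1 (-0.29). It lay between -0.29 and 0.37 with 1 sample left out. No other member changed sign in any fit. With a pseudocount of 1 in both terms, the log2 ratio of HIF3A to EPAS1 differed by -1.76. The share of EPAS1 differed by between -3.30 and 0.424 points with 1 sample left out, and the log2 ratio of summed alpha subunits to ARNT by between -0.10 and 0.63.

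Other scalings changed the lists. Median-of-ratios scaling called 1 regulator (lower) and 4 targets outside glycolysis (3 lower), quantile normalization 2 regulators (both lower), 6 such targets (5 lower) and 1 glycolytic target (lower), the stricter filter 1 regulator (FHL2, higher), and the fit without a variance trend 0 bHLH-PAS relatives. Of the calls over all mRNAs, 78.8% were higher, against 66.0% and 57.9% under the 2 scalings. Lower calls over all mRNAs numbered 212 in the main fit, 335 after median-of-ratios scaling and 486 after quantile normalization. With 1 sample left out, the calls ranged from 196 without Fetal2 to 944 without Neonatal1 over all mRNAs, from 1 to 3 over the members, from 0 to 0 over the bHLH-PAS relatives, from 1 to 4 over the targets outside glycolysis, from 0 to 2 over the glycolytic targets and from 0 to 2 over the other dioxygenases. These fits have fewer samples. The cause of the other changes was not tested.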
